A study of Mus musculus with 9 samples.

Results

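Metallothioneins and the genes that move or sense zinc were examined in capillaries cut from mouse bone at 2 ages. The set held 8 of the 39179 genes counted in each library: the metallothionein genes Mt1 and Mt2, the metal-sensing transcription factor gene Mtf1, the exporter genes Slc30a1 and Slc30a5 and the importer genes Slc39a8, Slc39a13 and Slc39a14. The genes were picked with their juvenile to adult changes in these libraries in view, so their changes with age are described without a test. All 8 passed the filter on low counts, as did 13418 genes in all.

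RNA came from single capillaries with the cells around them, cut by laser microdissection from the ossification front (OF) of the femur. The OF is the zone below the growth plate where new bone is laid down along vessels. The juvenile group comprised 5 libraries from mice aged 4 weeks and the adult group 4 libraries from mice aged 12 weeks. Both groups were C57BL/6 mice that carried the Tg(TIE2GFP)287Sato/J transgene, in which the endothelial Tie2 promoter drives GFP and so marks the vessels to be cut.

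Metallothioneins are small proteins of the cytosol whose many cysteines bind zinc, copper and cadmium. Free zinc binds the zinc fingers of MTF1, which then moves to the nucleus, binds metal response elements in promoters and raises the transcription of metallothionein genes and of Slc30a1. Proteins of the SLC30 (ZnT) family carry zinc out of the cytosol, and those of the SLC39 (ZIP) family carry it in. In bone, zinc is a cofactor of alkaline phosphatase and of matrix metalloproteinases, and mutations of SLC39A13 cause a form of Ehlers-Danlos syndrome with skeletal defects.

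Each library held 4856833 to 8077362 counts on genes, and the level of a gene is given below in CPM, its counts scaled to the TMM-adjusted library size. On that scale 3 counts, taken as the floor of detection, corresponded to 0.347 to 0.638 CPM. Endothelial markers were counted in all libraries (6 of 6 genes, 279 to 492 CPM in sum in juvenile and 305 to 452 CPM in adult libraries), and the markers of osteoblasts summed to 90727 to 115549 CPM in juvenile and 30927 to 46801 CPM in adult libraries, far above the endothelial ones. Markers of erythroid cells summed to 312 to 2026 CPM in juvenile and 3347 to 30596 CPM in adult libraries. Those of neutrophils summed to 5.08 to 59.1 CPM in juvenile and 81.0 to 3907 CPM in adult libraries. For each list 6 of 6 genes were called higher in adult by edgeR, though not every adult library was higher. Adult replicate 2 had 0 counts of Elane, as had juvenile replicates 1, 3 and 5. Its 0.334 CPM of Mpo lay below all juvenile libraries. Adult replicate 1 had 0 counts of Klf1. Juvenile replicates 4 and 5 had 524 and 439 counts of the Y-linked Ddx3y and 11 and 1 of Xist, whereas the other 7 libraries had at most 1 count of Ddx3y and at least 2965 of Xist, and values without these 2 libraries are therefore given for the members and for the genes called.

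Mt1 (ENSMUSG00000031765, chr8:94179082-94180327, plus strand, GRCm38) and Mt2 (ENSMUSG00000031762, chr8:94172664-94173568, plus strand) are neighbours on chromosome 8, as is the related Mt3. Their coding sequences are printed because the cysteine codons are what makes these proteins metal binders and because near-identical copies could share reads. Codons for cysteine (TGC or TGT) are in capitals, and the sequences were joined from the coding exons of the first numbered GENCODE transcript of each gene, read 5′ to 3′.
Mt1: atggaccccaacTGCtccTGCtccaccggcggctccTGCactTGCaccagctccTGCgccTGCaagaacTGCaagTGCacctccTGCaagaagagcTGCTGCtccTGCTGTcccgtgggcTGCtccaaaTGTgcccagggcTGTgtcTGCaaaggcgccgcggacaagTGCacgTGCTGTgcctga
Mt2: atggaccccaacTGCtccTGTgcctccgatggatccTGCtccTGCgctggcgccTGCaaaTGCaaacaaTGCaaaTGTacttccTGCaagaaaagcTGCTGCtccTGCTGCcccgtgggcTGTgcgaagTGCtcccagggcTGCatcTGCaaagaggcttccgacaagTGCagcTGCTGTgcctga
Mt3: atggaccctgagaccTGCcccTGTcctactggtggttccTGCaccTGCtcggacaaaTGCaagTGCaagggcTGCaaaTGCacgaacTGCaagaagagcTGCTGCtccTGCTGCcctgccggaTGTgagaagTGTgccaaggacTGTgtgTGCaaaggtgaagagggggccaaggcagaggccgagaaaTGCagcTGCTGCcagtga
Cysteine codons made up 20 of 61 codons (32.8%) in Mt1 and in Mt2 and 20 of 68 (29.4%) in Mt3. Mt1 and Mt2 were identical at 79.6% of their 186 coding bases, but the longest stretch their transcripts shared was 20 bases, shorter than the 75-base reads. No 75-base window of the longest annotated transcript of Mt1, Mt3, Slc39a8 or Slc39a14 recurred in an annotated transcript of another gene. Windows of their other transcripts were not checked. For Slc30a5, 0.178% of windows were shared with Alpk2. Of the Mt2 windows, 32.3% also lay in the antisense gene Gm45774, which the count files do not list. By position, exons of Gm45774 overlap 432 of the 588 exon bases of Mt2 (73.5%), on the opposite strand. For Mtf1, 8.56% of windows were shared with 1110065P20Rik, for Slc30a1 7.64% with 1700034H15Rik and for Slc39a13 1.09% with Psmc3, each on the opposite strand. The sources used here do not give the strand setting of the counting, so reads of these partners cannot be told apart in the counts.

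Both metallothioneins were higher in every adult than in every juvenile library. Mt1 stood at 234, 185, 295, 209 and 154 CPM in juvenile replicates 1 to 5 and at 620, 546, 552 and 534 CPM in adult replicates 1 to 4. The lowest adult library thus held 534 CPM against 295 CPM in the highest juvenile library. The means were 216 ± 53.4 CPM (SD, n = 5) and 563 ± 38.5 CPM (SD, n = 4), 2.61-fold higher in adult, and the log2 fold change of juvenile over adult was −1.39 (SE 0.19). With juvenile replicates 4 and 5 left out it was −1.24 (SE 0.20).

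Mt2, the second general metallothionein, was the scarcer of the pair. It stood at 18.5, 9.08, 41.5, 19.0 and 28.2 CPM in juvenile replicates 1 to 5 and at 57.6, 98.7, 80.5 and 103 CPM in adult replicates 1 to 4. The groups did not overlap, although juvenile replicate 3, the highest juvenile library for both genes, came nearest to the adult range. The means were 23.2 ± 12.2 CPM (SD, n = 5) and 84.9 ± 20.7 CPM (SD, n = 4), 3.65-fold higher in adult, and the log2 fold change was −1.87 (SE 0.38), or −1.89 (SE 0.49) without juvenile replicates 4 and 5.

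The level of the pair together was steadier between adult libraries than that of either gene. Summed Mt1 and Mt2 reached 239 ± 61.3 CPM (SD, n = 5, range 182 to 336) in juvenile and 648 ± 20.2 CPM (SD, n = 4, range 633 to 677) in adult libraries. Adult replicate 1 had the most Mt1 and the least Mt2 of the adult libraries, with 10.8 Mt1 counts per Mt2 count against 5.19 to 6.85 in the other adult libraries. Juvenile libraries had 5.47 to 20.4 Mt1 counts per Mt2 count, so the ratio overlapped between the ages. Together with Mt3, the metallothioneins took 0.0482% ± 0.0121 of the counts in juvenile (SD, n = 5) and 0.119% ± 0.00429 in adult libraries (SD, n = 4).

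**Figure D1:**
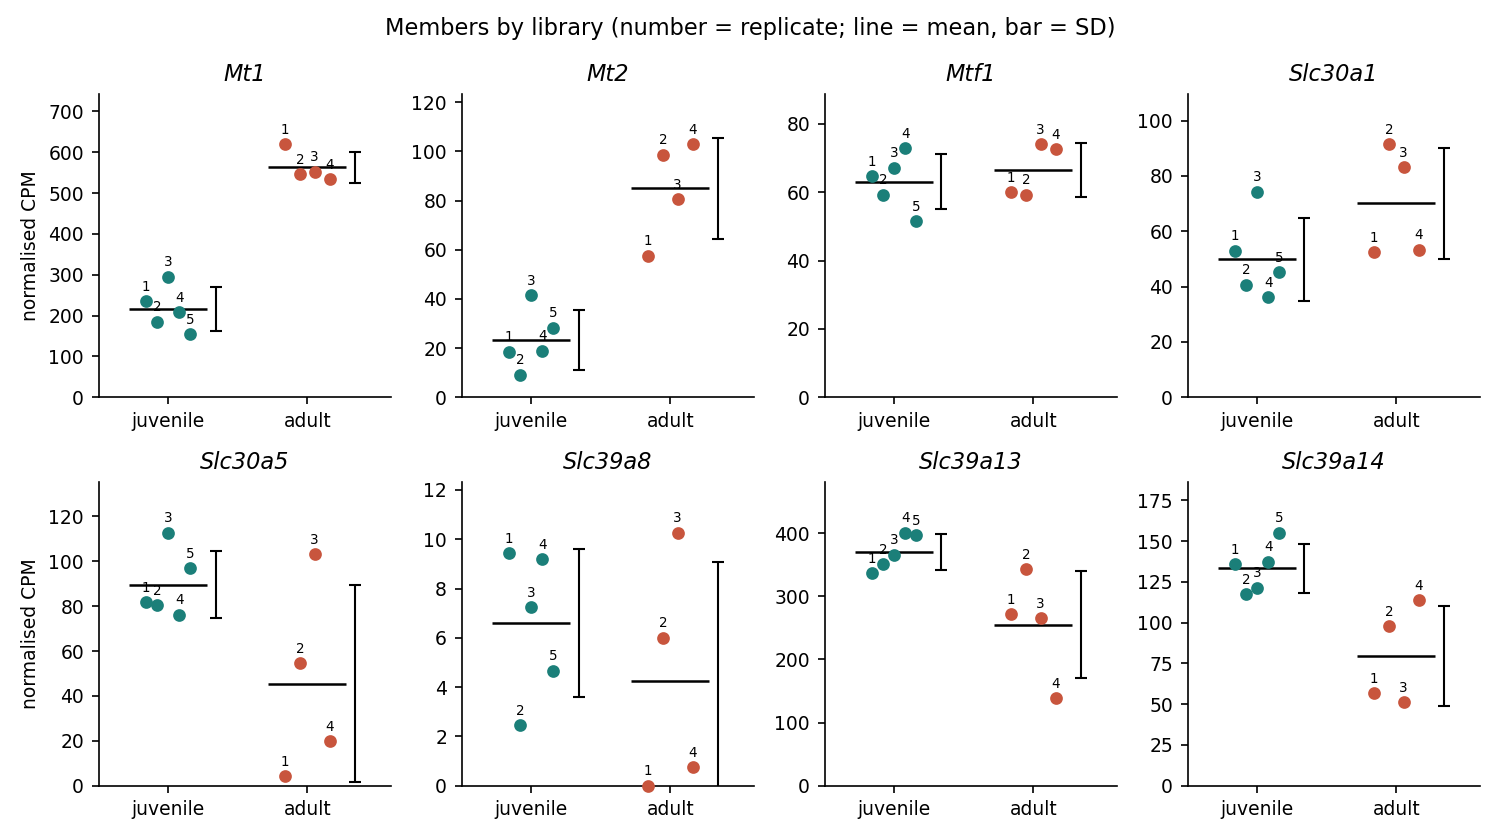
Normalised CPM (linear axes from 0, a scale for each panel) of the 8 genes in the 5 juvenile and 4 adult libraries. Numbers are replicates, lines are means and bars are SD, the adult Slc39a8 bar being cut off at 0. The adult points of Mt1 and Mt2 lie above all juvenile points, those of Slc39a14 lie below all juvenile points, and the points of the other 5 genes overlap.

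The regulator of these genes showed no such step. Mtf1 (ENSMUSG00000028890, chr4:124802104-124849800, plus strand), which encodes the zinc-sensing activator of metallothionein transcription, stood at 64.7, 59.3, 67.2, 72.8 and 51.5 CPM in juvenile and at 60.1, 59.3, 74.1 and 72.5 CPM in adult libraries. The ranges lay almost on top of each other. The log2 fold change was −0.08 (SE 0.20), and −0.06 (SE 0.24) without juvenile replicates 4 and 5. These are transcript levels and do not measure the MTF1 protein or its place in the cell.

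Slc30a1 (ENSMUSG00000037434, chr1:191906767-191913247, plus strand) encodes the exporter of the plasma membrane and is, like the metallothioneins, a known MTF1 target. It stood at 52.9, 40.6, 74.3, 36.2 and 45.1 CPM in juvenile and at 52.4, 91.5, 83.1 and 53.4 CPM in adult libraries. Adult replicates 2 and 3 lay above all juvenile libraries, and adult replicates 1 and 4 fell among them. The means were 49.8 ± 15.0 CPM (SD, n = 5) and 70.1 ± 20.2 CPM (SD, n = 4), with a log2 fold change of −0.49 (SE 0.28), or −0.32 (SE 0.33) without juvenile replicates 4 and 5.

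Slc30a5 (ENSMUSG00000021629, chr13:100802648-100833427, minus strand) encodes a transporter that carries zinc into the secretory pathway, where it is loaded into enzymes such as alkaline phosphatase. It was even among juvenile libraries, at 81.8, 80.5, 113, 76.2 and 96.9 CPM, and uneven among adult libraries, at 4.28, 54.6, 103 and 19.9 CPM. Adult replicate 1 held 37 counts of the gene and adult replicate 3 held 834. The juvenile mean was 89.6 ± 15.1 CPM (SD, n = 5) and the adult mean 45.5 ± 43.8 CPM (SD, n = 4). The log2 fold change of 0.98 (SE 0.60) ran from 0.58 without adult replicate 1 to 1.77 without adult replicate 3, was 1.01 (SE 0.76) without juvenile replicates 4 and 5, and was 1.58 with limma voom.

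Among the importers, Slc39a14 (ENSMUSG00000022094, chr14:70303469-70351425, minus strand), which carries zinc, iron and manganese, was lower in every adult than in every juvenile library. It stood at 136, 117, 121, 137 and 155 CPM in juvenile and at 56.5, 97.7, 51.1 and 114 CPM in adult libraries. The gap was narrow, since juvenile replicate 2 at 117 CPM and adult replicate 4 at 114 CPM were the nearest libraries. The means were 133 ± 15.0 CPM (SD, n = 5) and 79.7 ± 30.7 CPM (SD, n = 4), with a log2 fold change of 0.74 (SE 0.25), or 0.65 (SE 0.31) without juvenile replicates 4 and 5.

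Slc39a13 (ENSMUSG00000002105, chr2:91061791-91070417, minus strand) encodes a transporter of the early secretory pathway that is needed for connective tissue. It stood at 336, 351, 366, 401 and 397 CPM in juvenile and at 272, 343, 265 and 139 CPM in adult libraries. Adult replicate 2 was the only adult library within the juvenile range, and adult replicate 4 was the lowest. The means were 370 ± 28.3 CPM (SD, n = 5) and 255 ± 84.9 CPM (SD, n = 4), with a log2 fold change of 0.54 (SE 0.22), which ran from 0.32 without adult replicate 4 to 0.69 without adult replicate 2 and was 0.46 (SE 0.27) without juvenile replicates 4 and 5.

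Slc39a8 (ENSMUSG00000053897, chr3:135825279-135888572, plus strand), the closest relative of Slc39a14 and likewise an importer of zinc and manganese, was the scarcest member. It had 52, 17, 34, 49 and 22 counts in juvenile and 0, 36, 83 and 6 counts in adult libraries. In adult replicate 1 the 0 counts allow a level of up to 0.347 CPM, whereas adult replicate 3 reached 10.3 CPM, the highest of all 9 libraries. The log2 fold change of 0.63 (SE 1.12) ran from 0.20 to 1.55 as single libraries were left out, was 0.58 (SE 1.43) without juvenile replicates 4 and 5 and was 1.81 with limma voom. The adult libraries differed among themselves by far more than the means of the ages.

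Adult replicate 1 thus held the lowest Slc30a5 and Slc39a8 and the highest Mt1, while adult replicate 3 held the highest adult Slc30a5 and Slc39a8. Relative to the mean, the spread between adult libraries was 6.85% for Mt1, and 2.81% of the 1639 genes with a mean of at least 100 CPM varied as little or less among adult libraries (median 21.8%). Among juvenile libraries Mt1 varied by 24.8%, above the median of 17.5% for the same 1639 genes. Slc39a13 went the other way, at 7.64% in juvenile and 33.3% in adult libraries. Slc30a5 varied by 16.9% and 96.3%, and Slc39a14 by 11.3% and 38.5%.

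In the fit across all genes, Mt1 and Mt2 were the 2 of 8 members with an adjusted p under 0.05, where 3.88% of all genes tested reached it (1.99% higher in juvenile, 1.89% higher in adult). Without juvenile replicate 4, Mt2 was no longer among them. The adult group lay wholly above the juvenile group for Mt1 and Mt2, as for 4.08% of all genes tested, and the juvenile group lay wholly above the adult group for Slc39a14, as for 5.07%, which made 9.15% of all genes without overlap. The median log2 fold change was 0.23 over the 8 members and −0.01 over all genes. Since the members were chosen on this contrast, nothing is read from these counts. The RNA came from pieces of tissue, in which fewer cells of a type and less RNA per cell cannot be told apart.

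Per kilobase of annotated exon, Mt1 was the most abundant member at both ages. In juvenile libraries the means on this scale were 173 for Mt1, 76.0 for Slc39a13, 39.5 for Mt2, 12.6 for Slc39a14, 12.3 for Slc30a5, 9.50 for Slc30a1, 7.09 for Mtf1 and 0.860 for Slc39a8 CPM per kb. Library ranges of neighbours in that order were apart at the steps from Mt1 to Slc39a13, from Mt2 to Slc39a14 and from Mtf1 to Slc39a8, and overlapped at the other steps. In adult libraries the order was Mt1 at 452, Mt2 at 144, Slc39a13 at 52.3, Slc30a1 at 13.4, Slc39a14 at 7.56, Mtf1 at 7.47, Slc30a5 at 6.24 and Slc39a8 at 0.556 CPM per kb.

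Mt2 thus ranked below Slc39a13 in juvenile and above it in adult libraries. In each of the 5 juvenile libraries Slc39a13 exceeded Mt2 per length, although the ranges of these neighbours overlapped between libraries. In each of the 4 adult libraries Mt2 exceeded Slc39a13, and the ranges were apart. Among Slc30a1, Slc39a14, Mtf1 and Slc30a5, the adult ranges of neighbours overlapped and their order could not be resolved. Slc39a8 came last, below Slc30a5 in each of the 4 adult libraries, although the ranges of these neighbours overlapped between libraries. The annotated exons of Mt1 span 1246 bases, retained intron included, whereas its first numbered transcript has 549 bases. These lengths were 10550 and 2098 bases for Slc39a14 and 7664 and 3203 bases for Slc39a8. They were 7294 and 3179 bases for Slc30a5 and 4869 and 2469 bases for Slc39a13. The level per length of Mt1 and of these transporters can thus be understated on this scale. With the length of the first numbered transcripts, Mt1 stayed at the top, and Slc39a14 came above Mt2 in juvenile libraries. On that scale Mt2 still exceeded Slc39a13 in each of the 4 adult libraries, but their adult ranges overlapped.

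**Figure D2:**
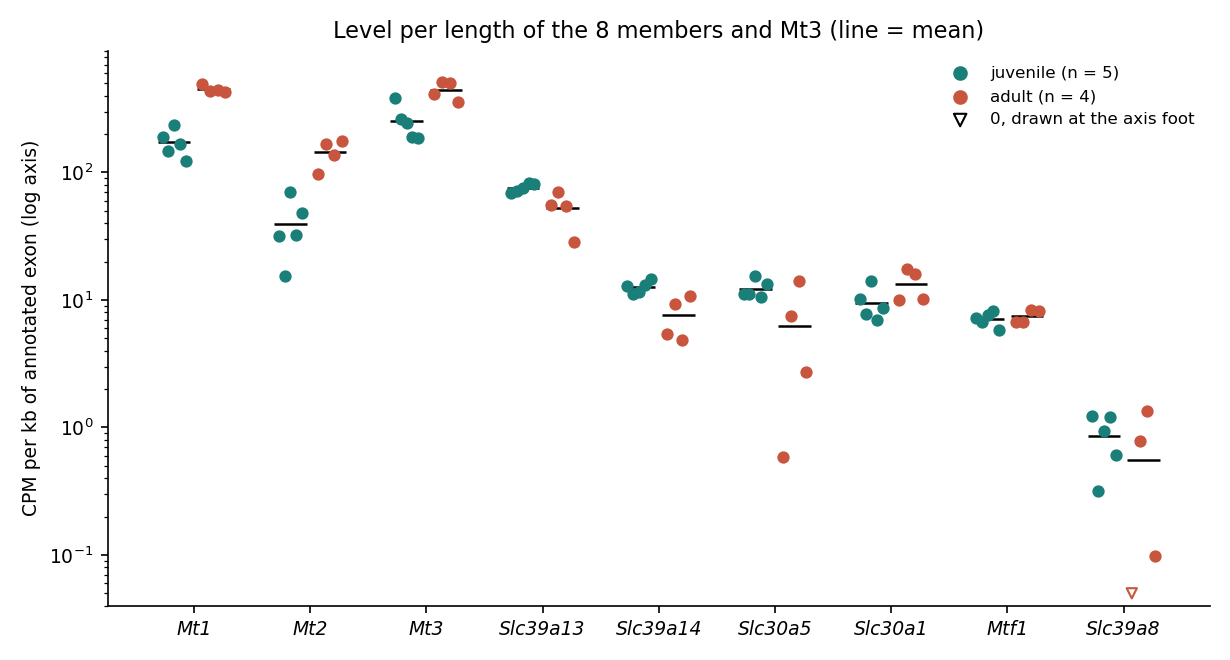
CPM per kilobase of annotated exon on a log axis for the 8 genes and Mt3 in juvenile (n = 5) and adult (n = 4) libraries, with lines at the means. Mt1, Mt2 and Mt3 sit highest in adult libraries at 452, 144 and 446, and Slc39a8 sits lowest, with 1 adult library at 0 drawn as an open triangle.

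Because Mt1 and Mt2 were both higher in adult libraries, the promoters of the members were searched for the core of the metal response element. The letters TGCACNC and TGCGCNC were sought on both strands of the 250 bases before the RefSeq start (GRCm38.p6). The 2 forms differ at the fourth letter, so no position matches both on the same strand, and 21.4% of the 32851 promoters in the RefSeq table held at least 1 match. Mt2 had 3 matches, and 1.26% of all promoters had 3 or more. Mt1, Slc30a1 and Slc30a5 had 1 match each, and Mtf1 and Slc39a13 had none. Slc39a8 had none before its first start and 1 before its second start. Slc39a14 was not searched. Of the genes outside the members, Mt3 had none in this window. Promoters of Mt1, Mt2 and Slc30a1, the known targets of MTF1 in the set, are shown with the matches, or their reverse complements, in capitals, 5′ to 3′ on the plus strand, which is the strand of each of these genes.
Mt1 chr8:94178839-94179088: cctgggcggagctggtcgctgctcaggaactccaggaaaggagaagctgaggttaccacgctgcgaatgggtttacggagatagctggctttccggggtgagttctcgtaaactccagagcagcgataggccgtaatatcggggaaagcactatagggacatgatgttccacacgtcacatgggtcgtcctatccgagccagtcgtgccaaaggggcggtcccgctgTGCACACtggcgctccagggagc
Mt2 chr8:94172368-94172617: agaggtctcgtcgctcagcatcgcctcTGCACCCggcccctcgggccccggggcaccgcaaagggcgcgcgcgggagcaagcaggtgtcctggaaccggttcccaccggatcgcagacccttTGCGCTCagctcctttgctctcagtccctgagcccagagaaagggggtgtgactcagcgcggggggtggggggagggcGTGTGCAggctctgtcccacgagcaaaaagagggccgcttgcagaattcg
Slc30a1 chr1:191906531-191906780: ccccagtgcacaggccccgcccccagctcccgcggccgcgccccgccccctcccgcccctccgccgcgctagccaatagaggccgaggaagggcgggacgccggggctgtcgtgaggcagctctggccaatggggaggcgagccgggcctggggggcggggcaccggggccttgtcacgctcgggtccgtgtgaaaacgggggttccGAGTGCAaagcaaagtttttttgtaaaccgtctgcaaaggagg
Counted from the RefSeq start, the Mt2 matches began at bases −223, −128 and −50, the Mt1 match at −23 and the Slc30a1 match at −43. The window depends on where a gene is taken to start. GENCODE places starts of Mt1 at chr8:94179082 and, for a shorter transcript, at chr8:94179211, and the 129 bases from the earlier start up to the later held 4 matches. These 4 sites, which lie in the annotated first exon, are given with 8 bases on each side, in order of position on chromosome 8.
Mt1 94179083: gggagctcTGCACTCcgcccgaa
Mt1 94179101: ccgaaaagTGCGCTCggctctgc
Mt1 94179165: cgcctgctGGGTGCAaacccttt
Mt1 94179179: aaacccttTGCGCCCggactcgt
In the same way, 3 matches lay in the 184 bases of the first exon of Mt2 before its coding sequence, and 3 in 139 bases of the first exon of Mt3. First exons of other genes were not searched, so these counts have no share over all genes beside them. They do not show whether such matches are more frequent here than elsewhere. A match of letters describes the sequence and does not show that MTF1 was bound there in these cells.

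**Figure D3:**
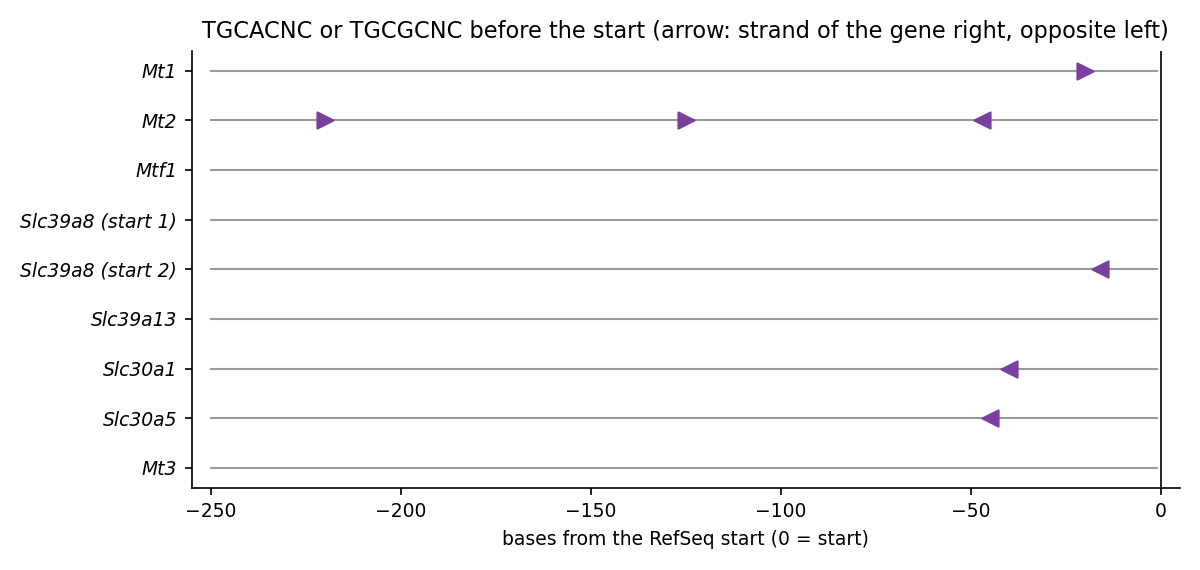
Positions of TGCACNC and TGCGCNC in the 250 bases before each RefSeq start of 7 members and Mt3, in bases from the start. Arrows pointing right are matches on the strand of the gene and those pointing left are on the opposite strand. Mt2 has 3 matches, Mt1, Slc30a1, Slc30a5 and the second Slc39a8 start have 1 each, and the other lines are empty.

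The rest of the zinc genes were tested in the same fit. They are what remained of these families after the members were picked with their changes in view, so their count and median are not independent of that choice. Of 21 further metallothionein, Slc30 and Slc39 genes, 15 passed the filter and 1 was called by edgeR's quasi-likelihood test with Benjamini-Hochberg adjustment over all genes, beside 3.88% of all genes tested. Their median log2 fold change was 0.32, with 10 values above 0 and 5 below. At an unadjusted p under 0.05 there were 2 genes, Slc39a10 and Mt3, in opposite directions. DESeq2 called both of them, whereas limma voom called Mt3 and not Slc39a10.

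The gene called was Slc39a10, an importer of the plasma membrane. It stood at 33.5, 45.1, 32.1, 40.2 and 47.0 CPM in juvenile and at 15.4, 19.4, 18.4 and 15.4 CPM in adult libraries. All juvenile libraries lay above all adult libraries, with means of 39.6 ± 6.68 CPM (SD, n = 5) and 17.1 ± 2.06 CPM (SD, n = 4), a log2 fold change of 1.21 (SE 0.30) and an adjusted p of 0.0406 (edgeR). The call was close to the threshold: leaving out any 1 library other than adult replicate 2 ended it, with adjusted p from 0.0604 to 0.116, as did leaving out juvenile replicates 4 and 5, with an adjusted p of 0.260 (edgeR). With limma voom the adjusted p was 0.0932.

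Mt3, a metallothionein known best from the brain, was abundant in these libraries. It stood at 409, 280, 258, 200 and 198 CPM in juvenile and at 443, 544, 533 and 381 CPM in adult libraries. Juvenile replicate 1 lay within the adult range, and the other 4 juvenile libraries lay below it. The means were 269 ± 86.0 CPM (SD, n = 5) and 475 ± 77.5 CPM (SD, n = 4), and the log2 fold change was −0.82 (SE 0.22) with an adjusted p of 0.0599 (edgeR), outside the threshold. Without juvenile replicate 1 the adjusted p was 0.0170, with DESeq2 0.00815, with limma voom 0.0306, and without juvenile replicates 4 and 5 it was 0.313 (edgeR). Mt3 had 0.876 to 1.75 counts per Mt1 count in juvenile and 0.712 to 0.996 in adult libraries.

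Of the other abundant zinc genes, Slc39a1, an importer of the plasma membrane, was level, at 123 ± 8.61 CPM in juvenile (SD, n = 5) and 122 ± 24.6 CPM in adult libraries (SD, n = 4). Slc30a9 stood at 78.2 ± 16.8 and 83.7 ± 40.7 CPM, Slc30a7, a transporter of the secretory pathway, at 52.0 ± 16.6 and 40.3 ± 24.4 CPM, Slc30a4 at 44.1 ± 13.8 and 26.2 ± 15.6 CPM and Slc39a11 at 38.9 ± 17.5 and 25.3 ± 3.03 CPM (SD, n = 5 and 4). None of these 5 was called, with adjusted p from 0.375 to 0.990 (edgeR), and their groups overlapped. The 6 genes that did not pass the filter were Mt4, Slc30a8, Slc30a10, Slc39a2, Slc39a4 and Slc39a12. Mt4 and Slc30a8 had 0 counts in all 9 libraries, which allows up to 0.638 CPM in the shallowest of them, and Slc39a4 and Slc39a12 had 1 count each.

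**Figure D4:**
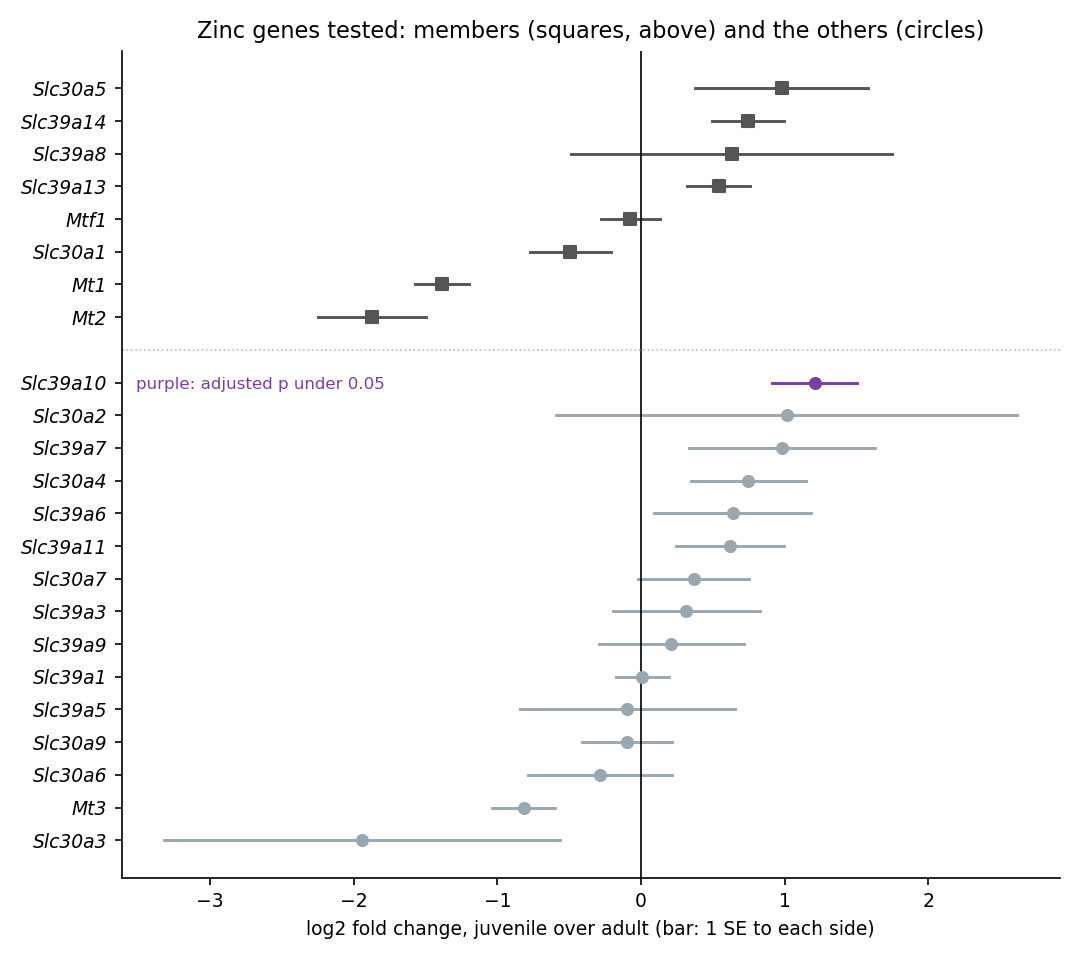
Log2 fold change of juvenile over adult with 1 SE to each side for the 8 members (squares) and the 15 other zinc genes tested (circles). Mt1 at −1.39 and Mt2 at −1.87 lie farthest left among the members, and Slc39a10 at 1.21 is the circle with an adjusted p under 0.05.

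Several zinc carriers also move other metals, and metallothionein genes also answer to glucocorticoids, acute-phase signals, heat and oxidants. Of 83 genes on 7 lists for these processes, 73 were tested and 10 were called, 3 higher in juvenile and 7 higher in adult, beside 3.88% of all genes tested (1.99% and 1.89% in these directions). Of the copper genes, 2 of 11 tested were called, both higher in adult (list median −0.02). Atox1, the cytosolic copper chaperone, rose from 301 ± 28.2 CPM (SD, n = 5) to 498 ± 50.2 CPM (SD, n = 4) with a log2 fold change of −0.72 (SE 0.14) and an adjusted p of 0.0160 (edgeR). Cp, which encodes the copper-bearing ferroxidase ceruloplasmin, rose from 236 ± 55.6 to 421 ± 54.6 CPM (adjusted p = 0.0323, edgeR).

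Of the 14 iron and manganese genes, Fth1, the heavy chain of the iron store ferritin, was called, and the list median was −0.45. Fth1 stood at 563 to 1050 CPM in juvenile and at 1351 to 2249 CPM in adult libraries, with a log2 fold change of −1.13 (SE 0.20) and an adjusted p of 0.00911 (edgeR). Erythroid markers, given above, were higher in the same adult libraries, and their part in the Fth1 difference was not tested. The zinc enzymes of the matrix and cell surface moved in both directions, with 3 of 12 called (median 0.13). Mmp2, a gelatinase, fell from 767 ± 45.5 CPM in juvenile (SD, n = 5) to 286 ± 68.7 CPM in adult (SD, n = 4; adjusted p = 0.00109, edgeR), and Enpp2, which makes lysophosphatidic acid, fell from 65.6 ± 16.6 to 26.1 ± 8.61 CPM (adjusted p = 0.0356, edgeR). Car2, the carbonic anhydrase of osteoclasts and red cells, rose from 119 ± 60.6 to 507 ± 349 CPM (adjusted p = 0.0195, edgeR), with adult replicate 4 at 994 CPM and overlapping groups.

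Of the glucocorticoid list, 2 of 10 tested were called in opposite directions (median −0.21). Tsc22d3, which encodes the glucocorticoid-induced leucine zipper protein, rose from 66.4 ± 17.8 CPM (SD, n = 5) to 174 ± 46.2 CPM (SD, n = 4) with a log2 fold change of −1.39 (SE 0.25) and an adjusted p of 0.00965 (edgeR). Cdkn1a, an inhibitor of the cell cycle that p53 also induces, fell from 380 ± 92.1 to 209 ± 41.4 CPM (adjusted p = 0.0398, edgeR). Of the STAT3 and acute-phase list, 0 of 7 genes tested were called by edgeR, 0 had an unadjusted p under 0.05, and DESeq2 and limma voom called 0 of these 7 (median −0.10). Lcn2, a further gene of the list, named here after its values were seen, did not pass the filter. It encodes lipocalin 2, an iron-siderophore carrier that neutrophils store. It stood at 0 to 0.144 CPM in juvenile and at 101, 0.167, 48.0 and 76.2 CPM in adult replicates 1 to 4. The values of adult replicate 2 and of the juvenile libraries lay below the floor of 3 counts. DESeq2 (adjusted p = 3.86e-06) and edgeR without the filter (adjusted p = 0.00102) called Lcn2 higher in adult. The part of neutrophils, whose marker sums are given above, in the Lcn2 difference was not tested. Of 9 heat shock genes tested, Hspe1, the mitochondrial co-chaperonin, was called and rose from 98.7 ± 19.5 to 204 ± 48.4 CPM (adjusted p = 0.0158, edgeR; list median −0.34). Of 10 genes of the oxidant response, Gclm, a subunit of the enzyme that starts glutathione synthesis, was called, with a log2 fold change of −1.84 (SE 0.36), higher in adult (adjusted p = 0.0148, edgeR; list median −0.33).

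The calls of Atox1, Fth1, Mmp2, Tsc22d3, Hspe1 and Gclm held with any single library left out. That of Cp was lost without juvenile replicate 1, 3 or 5 or adult replicate 2 or 4 (adjusted p 0.0538 to 0.0883), and that of Car2 without juvenile replicate 2, 3, 4 or 5 or adult replicate 4 (0.0532 to 0.0583). The call of Enpp2 was lost without any 1 library other than juvenile replicate 5 and adult replicate 2 (0.0525 to 0.0846), and that of Cdkn1a without any 1 other than adult replicate 2 (0.0508 to 0.101, edgeR). Without juvenile replicates 4 and 5, Mmp2 (adjusted p = 0.0220) and Tsc22d3 (adjusted p = 0.0423, edgeR) remained called and the other 8 did not.

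**Figure D5:**
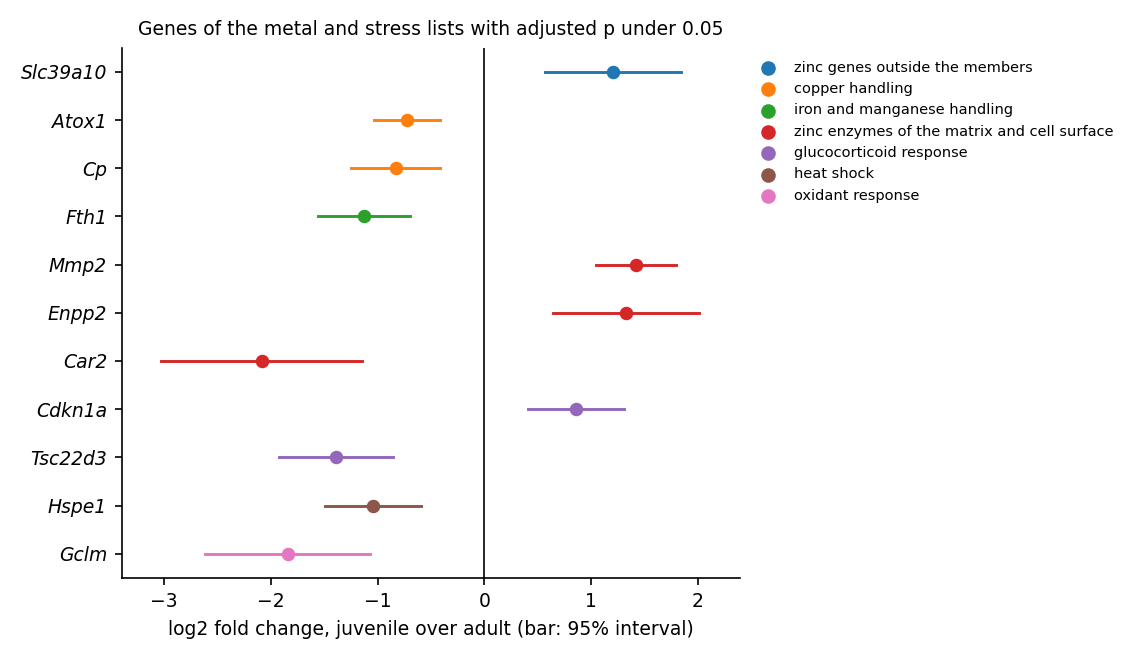
Log2 fold change of juvenile over adult with the 95% interval for Slc39a10 and the 10 genes called on the 7 related lists, coloured by list. Genes left of 0, among them Fth1 at −1.13 and Tsc22d3 at −1.39, were higher in adult, and Slc39a10, Mmp2, Enpp2 and Cdkn1a were higher in juvenile.

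Within each age, the genes whose levels followed the metallothioneins most closely were sought by the correlation with the mean log2 CPM of Mt1 and Mt2 after the age means were taken off, over 9 libraries and 9934 genes with a mean of at least 10 CPM. Wdr26 and Smcr8 (Pearson r = 0.92 each), ENSMUSG00000092267 (r = 0.90), Simc1 (r = 0.88), Cwf19l2 (r = 0.87) and Hyal1 (r = 0.86) were the 6 highest. None of these 6 was among the 6 highest by Spearman's rho, so the ranking depended on the measure. Of the members, Slc30a1 followed the metallothioneins best (r = 0.64, rank 215 of 9934), ahead of Mtf1 (0.27), Slc30a5 (0.24), Slc39a14 (0.21) and Slc39a13 (−0.05), and Mt3 stood at −0.06. Among adult libraries Mt1 and Mt2 themselves ran in opposite order. Relative to its mean, Mt2 varied more than Mt1, by 52.7% against 24.8% in juvenile and 24.4% against 6.85% in adult libraries. The mean of the pair thus followed Mt2 more than Mt1. All these values share the same libraries and their depth, and they describe the libraries only.

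Other cells also differed between the ages. Adult replicate 2 had 81.0 CPM of neutrophil markers, against up to 3907 CPM in other adult libraries, and 3347 CPM of erythroid markers, the least of the adult libraries. Its Mt1 (546 CPM) and Mt2 (98.7 CPM) lay within the range of the other adult libraries, and without it the log2 fold changes were −1.42 for Mt1 and −1.81 for Mt2. Macrophage markers summed to 479 to 806 CPM in juvenile and 1011 to 1580 CPM in adult libraries, megakaryocyte markers to 13.0 to 26.3 and 62.4 to 4247 CPM, and chondrocyte markers to 361 to 976 and 596 to 4468 CPM. Of the 6 genes of each list, 1 macrophage, 1 megakaryocyte and 2 chondrocyte markers were called higher in adult by edgeR. Csf1r and Cd68 held most of the macrophage sum, and Adgre1 and Mrc1 stood at 0 CPM in adult replicate 2. In adult replicate 3, Gp1bb (0.371 CPM), Itga2b (0.124 CPM) and Col10a1 (2.10 CPM) lay below all juvenile libraries. The sum of the osteoblast markers, at 90727 CPM or more in juvenile libraries, was lower in all adult libraries, as Slc39a14 was. Of these markers 4 of 6 were called higher in juvenile, and Runx2 and Alpl overlapped between the ages. Osteoclast markers summed to 12821 to 21076 CPM in juvenile and 16393 to 25455 CPM in adult libraries, with 2 of 6 called higher in adult. Adipogenic stroma markers summed to 257 to 394 and 306 to 1143.5 CPM, with 1 of 6 called higher in juvenile and 1 higher in adult. The part of these cell types in the differences of the members was not tested.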

How the data were processed

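The authors isolated RNA from laser-microdissected capillaries, amplified it with the SMART-Seq v4 kit, sequenced 75-base paired-end reads and mapped them to mm10 with TopHat2 and Bowtie2. The submitters' processing notes also name featureCounts, and versions and the strand setting are not given in the sources used here. They deposited whole-number read counts per Ensembl gene, without normalization. Symbols and positions came from GENCODE on GRCm38 (37693 of 39179 genes matched, 96.21%), promoters from RefSeq (GRCm38.p6).

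Counts were compared between ages (juvenile n = 5, adult n = 4) with edgeR 4.0.16 under R 4.3.3 (filterByExpr, TMM, quasi-likelihood test without covariates, Benjamini-Hochberg adjustment over 13418 genes, threshold 0.05). CPM used the TMM-scaled totals of the kept genes, and log2 CPM for correlations a prior count of 2. The labels do not name the animals behind the libraries, so p-values measure the spread between libraries. No library pair of 36 agreed within sampling noise. Floors and shares cover counting error only. Alternatives included DESeq2 1.42.0 and limma 3.58.1.

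Genes were named by rule: all members, the called genes of each list (up to 4), the 6 other zinc genes with the most counts and the 6 genes most like Mt1 and Mt2. Members and lists were chosen with earlier results of these data known. The fit was tested on simulated data.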

Additional observations from a re-analysis of the deposited data

Results flagged for a closer look

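Among 62 groups of 4 or 5 libraries examined for the genes named, 3 held a library far from the rest, where chance alone gives about 3.1. Tsc22d3 stood at 106 CPM in adult replicate 2, against 192 to 205 CPM in the other adult libraries. Hspe1 stood at 132 CPM in juvenile replicate 3, against 83.8 to 97.4 CPM in the other juvenile libraries. Hyal1 stood at 53.2 CPM in juvenile replicate 3, against 20.2 to 28.2 CPM in the other juvenile libraries. No group of the 8 members held such a library, and the causes were not tested.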

How the results depend on the processing

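The log2 fold changes of the 8 members kept their sign in all 135 values computed under the alternatives and moved by less than 1 SD of the log2 CPM between libraries within ages. That SD is wide for Slc39a8 and Slc30a5, whose log2 fold changes of 0.63 and 0.98 became 1.81 and 1.58 with limma voom. The count of members called was 1 (Mt1) without juvenile replicates 4 and 5 and 1 to 2 with 1 library left out, Mt2 being lost without juvenile replicate 4. Genes called over the whole table numbered 1490 with DESeq2 (517 shared with the 520 called by edgeR), 73 without juvenile replicates 4 and 5 and 262 to 651 with 1 library left out. Zinc genes outside the members called numbered 2 with DESeq2, 2 with at least 10 counts in every library, 0 without a filter, 0 without juvenile replicates 4 and 5 and 0 to 1 with 1 library left out. Genes called on the related lists numbered 22 with DESeq2, 2 without juvenile replicates 4 and 5 and 7 to 13 with 1 library left out.

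The labels do not say whether libraries with the same number belong together, and they were not treated as pairs. Correlations of their deviations from the age means were −0.03 to 0.03. The adult library that correlated best had the same number for juvenile replicates 1, 3 and 4, and was adult replicate 1 for juvenile replicate 2. These values do not settle whether the numbers mark pairs. With the replicate number as a block, 89 genes were called, with 1 member (Mt1), 0 other zinc genes and 1 gene of the related lists (Mmp2), and the log2 fold changes of Slc39a8 and Slc30a5 were 1.79 and 1.59.

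Of 391 values for the other named genes, 331 kept their side of the threshold and 12 had the opposite sign, 9 of Slc39a1 and 3 of Slc30a9. The adult order per length placed 4 of 8 members at the reported rank with the longest annotated transcript, and 4 of 8 with the length of the first numbered transcript, an alternative chosen after seeing the data. Of the 6 genes most like the metallothioneins, 0 were kept by Spearman's rho. The share of promoters with a match was 48.3% for the letters TGCAC or TGCGC alone and 14.7% in 150 bases. The causes of these shifts were not tested. With 4 or 5 libraries an age, a gene that was not called may still differ, and genes near the floor of 3 counts could not be resolved.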
